A study of Rattus norvegicus with 12 samples.

Results

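Alpha and pi class glutathione S-transferases were followed in the renal cortex of kidney grafts with and without the export pump MRP2. The family was taken as 7 rat genes, Gsta1, Gsta2, Gsta3, Gsta4, Gsta5, Gsta6 and Gstp1. Every probe set whose platform gene symbol includes 1 of these genes was used, which gave 5 of the 31099 measured probe sets. A probe set is a group of short array probes read out as a single signal. Of the 5, 4 name a single gene: 1367774_at (Gsta1), 1371089_at (Gsta3), 1372297_at (Gsta4) and 1388122_at (Gstp1). The fifth, 1368180_s_at, is shared by Gsta2 and Gsta5, so these paralogues cannot be told apart here. Probe sequences were not at hand, so whether a probe set also picks up RNA of other members was not checked. No listed probe set names Gsta6, which leaves 6 of the 7 genes with a signal.

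Renal cortex of transplanted kidneys of male rats was profiled on 12 arrays. Of the grafts, 6 were wild type and 6 MRP2-deficient (ABCC2-/-). All hosts were wild type, so the deficiency was borne by the graft alone. Strain, age, the time after transplantation, the allele and the number of donors are not given in the sources used here. The p-values thus measure only how these 12 samples spread, which may be partly technical. A graft can hold blood and immune cells of its wild-type host. The design compares grafts with and without the pump in wild-type hosts. What a graft brought along from its donor, such as other differences of background, cannot be told apart from loss of the pump.

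Glutathione S-transferases join the tripeptide glutathione to reactive, electrophilic compounds, which makes them soluble and ready for export. MRP2, encoded by Abcc2, is an apical pump of the proximal tubule that exports such conjugates. Alpha class enzymes are abundant in proximal tubule and liver, and they also reduce lipid hydroperoxides. The pi class enzyme Gstp1 is known in the rat as a marker of preneoplastic liver foci. Several of these genes can be induced through NRF2, a transcription factor that binds the antioxidant response element.

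The arrays differed in ways that touch the family. In each genotype the first-listed 3 samples (array set 1) and the last-listed 3 (array set 2) stand apart, and the labels do not say what separates them. In limma with genotype in the model, 30.3% of 18625 tested probe sets differed between the array sets. The ratio of the 3′ to the 5′ control probe set of Gapdh, a measure of how complete the labelled RNA is, lay between 1.28 and 1.37 in the 3 deficient grafts of array set 2 and between 1.64 and 1.93 on the other 9 arrays. Abcc2 itself was 6.47-fold lower in deficient grafts (signal 0.899 ± 0.0746 against 0.141 ± 0.0594, SD, n = 6 each), without overlap. For this fold 1 deficient value (0.0387) was raised to a floor for low values (0.0694), so the fold depends in part on that floor. All values below are deposited signals in arbitrary units, and signals of different probe sets are not compared as levels, because probes differ in brightness.

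In the comparison of deficient with wild-type grafts all 5 probe sets had a higher mean in deficient grafts, by 1.91-fold for Gsta3, 1.73-fold for Gstp1 and 1.10-fold to 1.20-fold for the other alpha class probe sets. None passed the threshold, an adjusted p of 0.05 in limma with Benjamini-Hochberg adjustment over all 18625 tested probe sets. In that fit 0.0% of the probe sets were called higher in deficient grafts, and 4 were called lower. At an unadjusted p under 0.05 in limma 2 of the 5 were higher, Gsta3 and Gstp1, against 3.35% of all tested probe sets. The median log2 difference of the 5 was 0.26, against -0.023 over all tested probe sets. The 2 array sets were then entered as a block, which compares grafts within each set. In this fit Gsta3 and Gstp1 passed, 2 of 5 against 0.204% of all tested probe sets. The block does not remove a difference in control ratios within an array set. In array set 2 the Gapdh ratio was 1.28 to 1.37 in deficient and 1.64 to 1.88 in wild-type grafts. The same ratio for beta-actin was 4.48 to 6.39 and 8.39 to 9.79. In array set 1 the Gapdh ratio overlapped, with 1.66 to 1.93 in deficient and 1.75 to 1.83 in wild-type grafts. The beta-actin ratio there was higher in deficient grafts, 8.56 to 9.57 against 7.06 to 8.10, without overlap. In array set 2 genotype cannot be told apart from either ratio, and in array set 1 not from that of beta-actin.

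Gsta3 encodes the alpha class subunit that the RefSeq gene table also lists as Yc2, known for conjugating aflatoxin epoxide. In wild-type grafts its signal ran from 0.623 to 0.974 with a median of 0.799. In deficient grafts it ran from 1.07 to 2.24 with a median of 1.47. Every deficient graft lay above every wild-type graft, a separation seen in 0.161% of all tested probe sets (30 of 18625). The means were 0.797 ± 0.136 and 1.56 ± 0.440 (SD, n = 6 each), a log2 difference of 0.93 (SE 0.17), or 1.91-fold with a 95% confidence interval of 1.49 to 2.45. An exact permutation test (two-sided) gave p = 0.00216, the lowest value possible with 6 against 6 arrays, while the adjusted p over all probe sets in limma was 0.161. No other probe set higher in deficient grafts had a lower p in this fit. With array set as a block the adjusted p in limma was 0.0318.

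The genotypes did not overlap in Gsta3 in either array set. In array set 1 the wild-type grafts had 0.672, 0.822 and 0.776 (replicates 1, 6 and 9) and the deficient grafts 1.89, 1.57 and 1.36 (replicates 5, 9 and 11), a 2.11-fold difference. In array set 2 the wild-type grafts had 0.917, 0.623 and 0.974 (replicates 4, 7 and 8) and the deficient grafts 2.24, 1.20 and 1.07 (replicates 3, 10 and 14), a 1.73-fold difference. Deficient replicate 3 is thus the highest of the 12 arrays, while replicates 10 and 14 lie just above the wild-type range. Of 12 fits that each left out 1 array, Gsta3 passed the threshold in 1, that without deficient replicate 14 (log2 difference 1.03, adjusted p = 0.0455 in limma). In the other 11 the adjusted p was 0.130 to 0.513 in limma. The difference between the array sets in the effect of genotype was -0.29 on the log2 scale (SE 0.33, adjusted p = 0.698 in limma).

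Gstp1 encodes the pi class subunit. Its signal ran from 10.7 to 27.8 in wild-type grafts (median 17.8) and from 23.9 to 45.1 in deficient grafts (median 30.2). The groups overlapped: 4 of 6 deficient grafts lay above all wild-type grafts, and all 6 lay above the wild-type mean. The means were 18.6 ± 6.03 and 31.4 ± 7.48 (SD, n = 6 each), a log2 difference of 0.79 (SE 0.19), or 1.73-fold with a 95% confidence interval of 1.30 to 2.30. The adjusted p over all probe sets in limma was 0.560, the exact two-sided permutation p was 0.00866, and with array set as a block the adjusted p in limma was 0.0386.

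For Gstp1 part of the overlap lay between the array sets. In array set 1 the wild-type grafts had 10.7, 17.0 and 14.6 (replicates 1, 6 and 9) and the deficient grafts 29.6, 32.8 and 23.9 (replicates 5, 9 and 11), 2.06-fold apart and without overlap. In array set 2 the wild-type grafts had 18.5, 22.6 and 27.8 (replicates 4, 7 and 8) and the deficient grafts 45.1, 25.9 and 30.8 (replicates 3, 10 and 14), 1.46-fold apart, with wild-type replicate 8 above deficient replicate 10. As for Gsta3, deficient replicate 3 was the highest array. The difference between these effects was -0.50 on the log2 scale (SE 0.28, adjusted p = 0.374 in limma), so it did not pass the threshold. With the Gapdh control ratio added as a covariate, the log2 difference of Gstp1 was 0.64 and that of Gsta3 0.99, both with adjusted p above the threshold in limma. The part of this ratio in the results was not tested further.

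**Figure D1:**
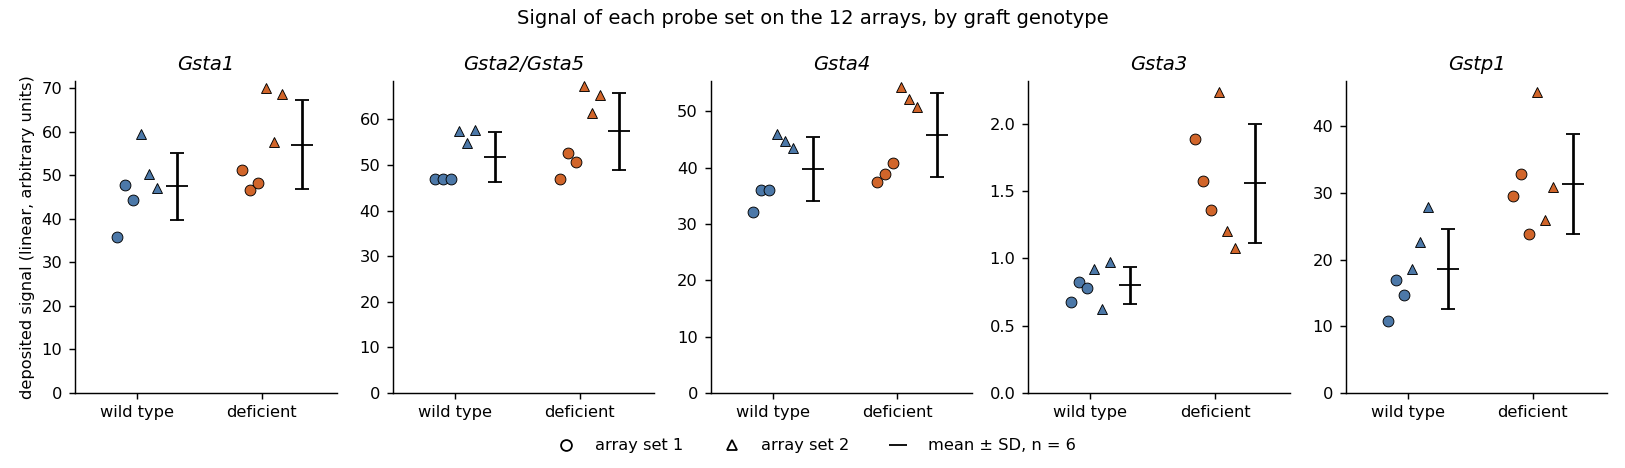
Deposited signal (linear scale from 0, arbitrary units) of the 5 probe sets in 6 wild-type (blue) and 6 deficient (orange) grafts; circles are array set 1, triangles array set 2, and bars give the mean ± SD (n = 6). Gsta3 separates the genotypes, with 0.623 to 0.974 against 1.07 to 2.24, while in Gsta2/Gsta5 and Gsta4 the triangles stand above the circles in both genotypes.

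Gsta1, Gsta4 and the probe set shared by Gsta2 and Gsta5 showed smaller differences. Gsta1, an alpha class subunit listed also as Yc1, ran from 35.9 to 59.6 in wild-type grafts (median 47.5) and from 46.7 to 70.0 in deficient grafts (median 54.4). The groups overlapped, with 2 of 6 deficient grafts above all wild-type grafts. The difference was 1.20-fold (95% confidence interval 0.998 to 1.44, adjusted p = 0.6246 in limma, exact permutation p = 0.0996). Gsta4, whose enzyme is known for conjugating the lipid peroxidation product 4-hydroxynonenal, ran from 32.1 to 45.9 (median 39.7) and from 37.5 to 54.3 (median 45.8). Its difference was 1.15-fold (95% confidence interval 0.968 to 1.36, adjusted p = 0.635 in limma, exact permutation p = 0.147).

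The shared Gsta2 and Gsta5 probe set ran from 46.8 to 57.8 in wild-type grafts (median 50.9) and from 46.9 to 67.4 in deficient grafts (median 57.0). The difference was 1.10-fold (95% confidence interval 0.949 to 1.28, adjusted p = 0.658 in limma, exact permutation p = 0.227). These intervals leave room for no difference and for a rise of up to 1.44-fold, but not for the 1.91-fold seen in Gsta3.

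In these 3 probe sets the estimated difference between array sets was larger than that between genotypes. With genotype in the model, array set 2 was higher than array set 1 by 0.36 on the log2 scale for Gsta1, 0.32 for Gsta2/Gsta5 and 0.40 for Gsta4 (SE 0.08, 0.05 and 0.05, adjusted p of 0.00270, 1.24e-04 and 3.76e-05 in limma). Gstp1 was higher too, by 0.46 (SE 0.15, adjusted p = 0.0305 in limma), and Gsta3 differed by -0.018 (SE 0.17, adjusted p = 0.950 in limma). Thus 4 of the 5 probe sets were called higher in array set 2, against 11.3% of all tested probe sets. Both sets hold 3 grafts of each genotype.

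Within an array set the genotypes overlapped less. In array set 1, 4 of the 5 probe sets (all but Gsta1) had every deficient graft above every wild-type graft, against 4.68% of all tested probe sets. In array set 2 this held for 3 of 5 (Gsta3, Gsta4 and Gsta2/Gsta5), against 15.2%, and these 3 were without overlap in both array sets, against 1.0%. For Gsta2/Gsta5 the wild-type grafts of array set 1 lay between 46.81 and 46.89 and the deficient grafts between 46.90 and 52.62, so that separation rests on a gap far smaller than the spread of the deficient grafts. In array set 2 they lay between 54.9 and 57.8 and between 61.3 and 67.4. For Gsta4 the ranges were 32.1 to 36.0 against 37.5 to 40.8 in array set 1 and 43.5 to 45.9 against 50.7 to 54.3 in array set 2. An exact two-sided permutation within the array sets gave p = 0.005 for both probe sets and for Gsta3, the smallest that this design can give, p = 0.010 for Gstp1 and p = 0.025 for Gsta1. It was chosen after the 2 sets had been seen. With array set as a block the adjusted p in limma was 0.0613 for Gsta4, 0.104 for Gsta1 and 0.126 for Gsta2/Gsta5, all above the threshold. The 3 deficient grafts of array set 2, which hold the highest values of Gsta4 and of Gsta2/Gsta5, are those with the low Gapdh 3′ to 5′ ratio. With that ratio as a covariate the log2 differences were 0.13 for Gsta1, 0.041 for Gsta4 and -0.0016 for Gsta2/Gsta5.

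**Figure D2:**
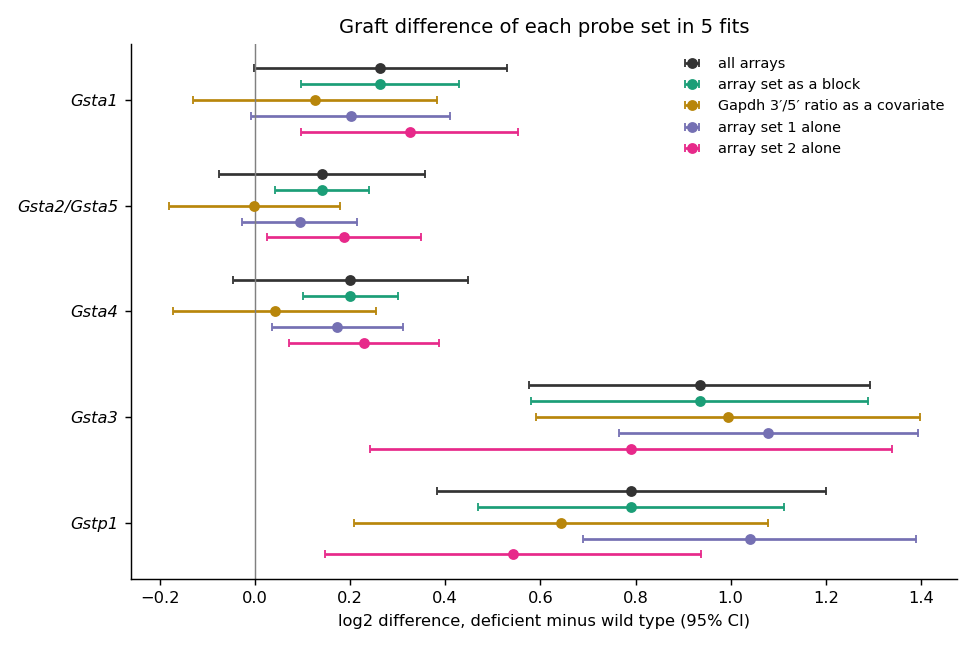
Log2 difference, deficient minus wild type, with its 95% confidence interval for each probe set in 5 limma fits: all arrays, array set as a block, the Gapdh 3′/5′ ratio as a covariate, and each array set alone. Gsta3 stays between 0.79 and 1.08 and Gstp1 between 0.54 and 1.04 over these fits, while the other 3 lie between -0.0016 and 0.33.

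Whether Gsta3 and Gstp1 differed from the other alpha class probe sets was tested with ratios within each array, which take out whatever both probe sets of an array share. An exact permutation test (two-sided) was run for each of the 10 pairs, after the values above had been seen, and p-values were adjusted over the 10. A ratio of signals from different probe sets has no meaning as a level, so its change between genotypes is given. The ratio of Gsta3 to Gsta1 was 1.59-fold higher in deficient grafts (0.0279 ± 0.00813 against 0.0170 ± 0.00284, SD, n = 6 each, exact permutation p = 0.0195, adjusted p = 0.0390). In 5 of 6 deficient arrays it exceeded the wild-type range, and deficient replicate 14 was the exception. The ratio of Gsta3 to Gsta4 was 1.66-fold higher and that to Gsta2/Gsta5 1.73-fold higher, each with an adjusted p of 0.0390 in this exact test. Gstp1 rose against the same 3 probe sets, by 1.44-fold over Gsta1 (adjusted p = 0.0469, exact), 1.51-fold over Gsta4 and 1.57-fold over Gsta2/Gsta5 (adjusted p = 0.0390 each, exact).

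The other 4 pairs did not pass. The ratio of Gsta3 to Gstp1 ran from 0.0276 to 0.0625 in wild-type grafts and from 0.0348 to 0.0638 in deficient grafts, a 1.11-fold difference (exact permutation p = 0.524). The ratios among Gsta1, Gsta4 and Gsta2/Gsta5 changed by 1.04-fold to 1.09-fold (exact permutation p between 0.178 and 0.392). By this measure 6 of 10 pairs passed, those of Gsta3 or Gstp1 with Gsta1, Gsta4 or Gsta2/Gsta5. With the exact permutation kept within array sets 4 of 10 passed: the 3 ratios of Gsta3 (adjusted p = 0.0333 each) and that of Gstp1 to Gsta2/Gsta5 (adjusted p = 0.0375). The ratios of Gstp1 to Gsta1 and to Gsta4 then had an adjusted p of 0.05, which is not under the threshold. The tests reuse the signals described above and are not separate evidence.

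**Figure D3:**
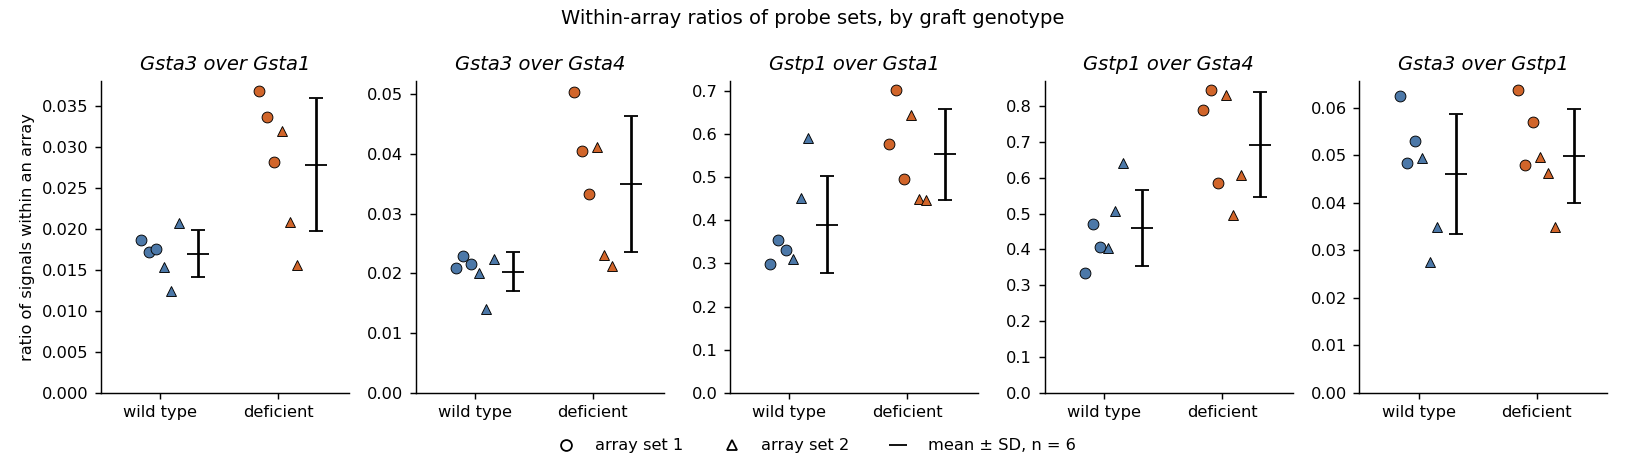
Ratio of the signals of 2 probe sets within an array (linear scale from 0) in 6 wild-type (blue) and 6 deficient (orange) grafts, with the mean ± SD (n = 6); circles are array set 1 and triangles array set 2. The ratios of Gsta3 and of Gstp1 to Gsta1 and Gsta4 are higher in deficient grafts by 1.44-fold to 1.66-fold, and the ratio of Gsta3 to Gstp1 by 1.11-fold.

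Start site sequences from RefSeq (GRCr8) were searched because several of these genes are known NRF2 targets. Windows of 300 bases, 250 before the annotated start and 50 after it, were held for all 7 genes, with 2 starts for Gsta3. The core of the antioxidant response element, TGACNNNGC on either strand, was found in 4 of these 8 windows, those of Gstp1, Gsta1, Gsta2 and one of the Gsta3 starts, against 12.1% of 33469 windows in all. The AP-1 site TGACTCA, on either strand, was found in the Gstp1 window alone, where it overlaps the first motif, against 4.63% of all windows. The matches of Gsta1 and Gsta3 lie in sequence that these genes share, so they are not separate occurrences. Sequence outside the windows was not searched. A match of letters is a description and does not show binding. The 2 members with the larger graft differences are shown first, from 130 bases before the start to 30 after it, read along the gene, with the matches in capitals. Gsta3 is at chr9:31154859-31155018 on the plus strand and Gstp1 at chr1:210769676-210769835 on the minus strand.
Gsta3: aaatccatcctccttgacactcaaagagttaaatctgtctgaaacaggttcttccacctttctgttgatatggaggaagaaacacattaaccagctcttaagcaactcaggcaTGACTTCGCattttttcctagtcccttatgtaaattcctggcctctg
Gstp1: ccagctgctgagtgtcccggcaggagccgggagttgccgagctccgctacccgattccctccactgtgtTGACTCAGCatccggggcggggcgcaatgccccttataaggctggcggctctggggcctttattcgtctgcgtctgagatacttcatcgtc

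The match in Gsta3 lies 17 to 9 bases before the annotated start, and that in Gstp1 61 to 53 bases before it. The next lines set the match of Gsta3 beside that of Gsta1, with its flanks, because the motif lies in sequence that these neighbours share. Whether either site bears on the graft differences was not tested. The Gsta3 site is at chr9:31154961-31154989 on the plus strand and the Gsta1 site, 31 to 39 bases after its own start, at chr9:31216485-31216513 on the minus strand.
Gsta3 site: caactcaggcaTGACTTCGCattttttcc
Gsta1 site: caactcaggcaTGACTTTGCatttttctt

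In a local alignment of the 2 windows, 175 of 218 aligned columns were identical (80.3%). Gsta2 has its match 37 to 45 bases after the start, on the opposite strand. The Gsta4, Gsta5 and Gsta6 windows held neither motif. In the RefSeq gene order Gsta3, Gsta1 and Gsta6 lie together on chromosome 9, Gsta4, Gsta5 and Gsta2 together on chromosome 8, and Gstp1 on chromosome 1. Abcc2 lies on chromosome 1 as well, with 552 protein-coding genes between it and Gstp1.

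The members' variation within a genotype followed the array sets in part. With genotype means removed, Gsta4 fell into the 2 array sets without overlap, and Gsta1 nearly did. In the planned test over the 12 arrays, Gsta1 and Gsta4 had a Pearson correlation of 0.87 (permutation p = 1.4e-04, adjusted p = 8.4e-04 over 6 pairs). No other pair passed. That correlation includes the difference between array sets, so correlations were also tested within array sets. With the mean of each genotype in each array set removed, the highest Pearson correlation of 6 pairs among Gsta1, Gsta3, Gsta4 and Gstp1 was 0.65, between Gsta3 and Gstp1 (n = 12, exact permutation p = 0.0887, adjusted p = 0.340 over the 6 pairs). Spearman's rho was 0.59 (exact permutation p = 0.107, adjusted p = 0.548). Without the 2 arrays farthest from the median of Gsta3 the Pearson correlation was 0.52. For Gsta1 and Gsta4 it was 0.60 (exact permutation p = 0.113, adjusted p = 0.340, 0.41 without the 2 farthest arrays), with a rho of 0.43 (exact permutation p = 0.232, adjusted p = 0.548). Within array sets none of the 6 pairs passed.

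**Figure D4:**
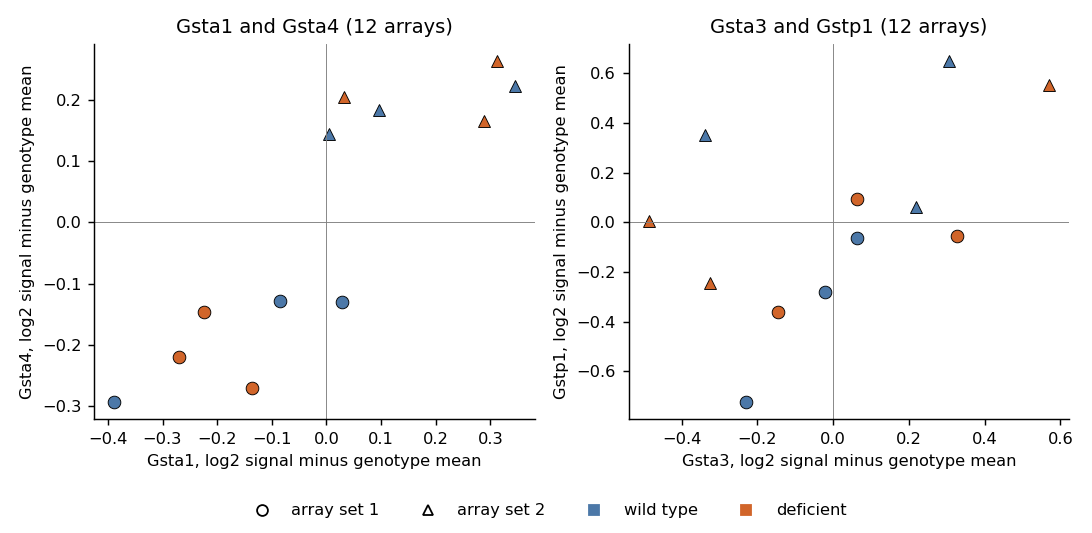
Log2 signal minus the genotype mean on 12 arrays for Gsta1 against Gsta4 (left) and Gsta3 against Gstp1 (right); blue is wild type, orange deficient, circles array set 1 and triangles array set 2. On the left the array sets separate fully in Gsta4, with all triangles above all circles, and on the right the array sets mix along the Gsta3 axis.

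Genes with the most similar pattern were looked up among 14110 tested probe sets that name a single gene, by Pearson correlation over the 12 arrays with genotype means removed. These values are a description, since all points share arrays, and they include the difference between array sets. Closest to Gsta3 were Mtnap1, Hdgfl2 and Vsig10l (correlations of 0.89, 0.89 and 0.88), with log2 differences between genotypes of -0.49, -0.14 and 0.018. Closest to Gstp1 were Gfer, a sulfhydryl oxidase of mitochondria, Phlda2 and Upf3a (0.91, 0.90 and 0.89), with log2 differences of 0.084, 0.37 and 0.042. Closest to Gsta4 were Rnf181, Tomm7 and Prorp (0.99, 0.99 and 0.98), and to Gsta1 Egfl8, Ddx18 and Erf (each 0.95). With array set means removed too, the correlations with Gsta4 were 0.75 to 0.88 and those with Gsta3 0.89 to 0.92. None of these 12 genes passed the threshold between genotypes in limma.

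Glutathione transferases of other classes (mu, theta, kappa, omega, zeta and membrane-bound) and related genes had smaller estimates than Gsta3 and Gstp1. They were not all smaller than those of Gsta1 (0.26), Gsta4 (0.20) and Gsta2/Gsta5 (0.14). Of 20 listed genes 15 were tested, of which 14 lay above 0 and 1 below. Their median log2 difference was 0.14, while that of all genes tested was -0.041. None passed in limma, with or without array set as a block. Gstm5, a mu class enzyme, had the lowest p among those higher (log2 difference 0.34, SE 0.13, adjusted p = 0.606 in limma), with 0.487 to 0.732 in wild-type and 0.620 to 0.912 in deficient grafts, which overlap. The value lower in deficient grafts was that of Gstcd (-0.068, SE 0.14). All 15 estimates lay below those of Gsta3 and Gstp1, which were not tested against them.

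**Figure D5:**
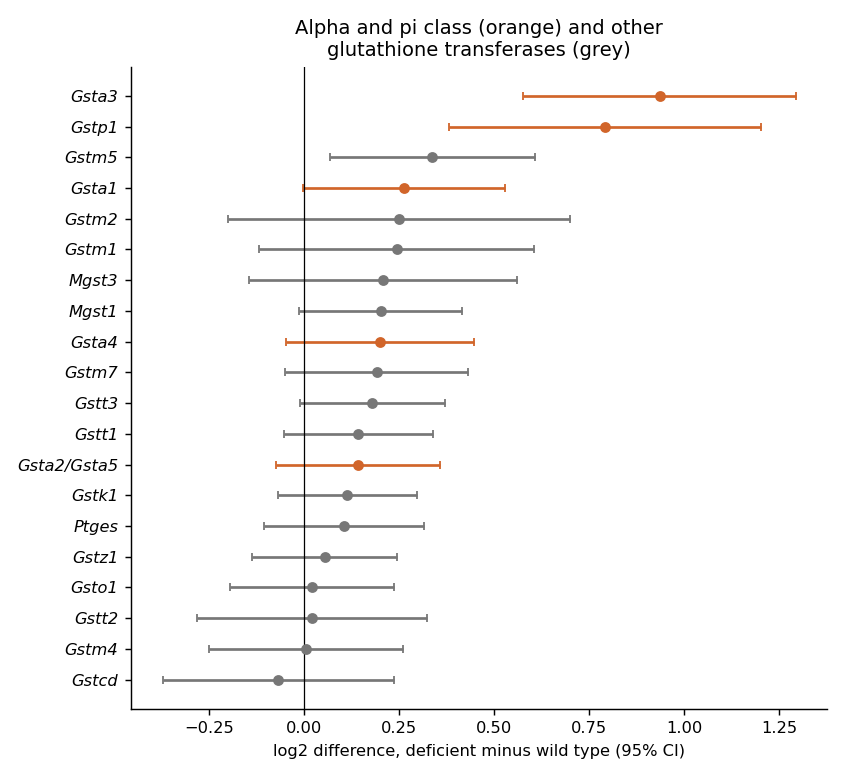
Log2 difference, deficient minus wild type, with its 95% confidence interval in the limma fit of all arrays, for the 5 alpha and pi class probe sets (orange) and 15 other glutathione transferases (grey), ordered by size. Gsta3 (0.93) and Gstp1 (0.79) head the order, followed by Gstm5 (0.34).

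Genes that make, recycle or break down glutathione were spread around 0. Of 18 tested 9 had a positive and 9 a negative difference (median 0.024), and none passed in limma. Ggt5, a gamma-glutamyl transferase, had 0.41 (SE 0.20) and Slc1a1, a carrier of glutamate and cysteine, -0.17 (SE 0.08), the lowest p in each direction. The rate-limiting enzyme of glutathione synthesis is made of Gclc and Gclm, which had -0.050 (SE 0.21) and 0.16 (SE 0.19).

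Of 22 tested NRF2-controlled genes outside glutathione metabolism 15 had a positive and 7 a negative difference (median 0.10), and Abcc2 alone passed, lower in deficient grafts. Abcc2 is the gene deficient in these grafts by design and is counted among the 7, so its call says nothing on the other genes. With array set as a block Hmox1, the inducible heme oxygenase, and Akr1b8, an aldo-keto reductase, passed as well, higher in deficient grafts (adjusted p of 0.0462 and 0.0386 in limma), 2 of 22 against 0.188% of all genes tested. Hmox1 had a log2 difference of 0.97 (SE 0.21), with 0.286 to 0.592 in wild-type and 0.430 to 0.961 in deficient grafts. Akr1b8 had 0.76 (SE 0.19), with 0.210 to 0.431 and 0.364 to 0.687. Both overlapped between genotypes and did not pass without the block (adjusted p of 0.465 and 0.560 in limma). The limit of the block fit given above, the unlike control ratios of the genotypes within array sets, holds here too. Nfe2l2, which encodes NRF2, had 0.074 (SE 0.08) and Keap1, which holds NRF2 in check, -0.080 (SE 0.13). Both are regulators, yet both are counted among the 22 above and again among the 10 regulators below. Among 10 tested regulators of alpha class genes none passed in limma. Cebpa, a transcription factor of differentiated epithelium and liver, had -0.39 (SE 0.13, adjusted p = 0.606 in limma, 0.0613 with array set as a block), and Maff, a partner of NRF2, 0.33 (SE 0.25).

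Markers of the cells the cortex could hold were checked beside these values. Of 16 tested proximal tubule markers 7 had a positive and 9 a negative difference, and their summed signal was 698 to 929 in wild-type and 721 to 824 in deficient grafts. The lists of loop, distal tubule and collecting duct (10 tested, sums of 165.1 to 185.0 and 164.5 to 175.1), podocytes and endothelium (8 tested, 29.4 to 37.0 and 28.9 to 35.7), macrophages and lymphocytes (6 tested, 4.44 to 5.24 and 4.34 to 5.71) and blood (3 tested, 19.2 to 50.5 and 10.3 to 42.8) overlapped between genotypes in their sums, and no marker passed in limma. Loop, distal tubule and collecting duct markers had 3 positive and 7 negative differences (median -0.13), podocyte and endothelial markers 1 and 7 (median -0.12), macrophage and lymphocyte markers 3 and 3 (median -0.0053), and blood markers 0 and 3 (median -0.30). Of 8 liver markers 2 passed the level filter, with sums over all 8 of 2.41 to 5.71 and 1.01 to 12.3, and Tat was below the floor for low values on every array. None of 5 adrenal cortex markers passed the level filter. Slc4a1 stands both in the blood list and in that of loop, distal tubule and collecting duct. In the sums, bright probe sets weigh more than dim ones. In bulk cortex, fewer cells of a type and less RNA per cell cannot be told apart, and the part of cell makeup in the differences was not tested.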

How the data were processed

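Total RNA of renal cortex was biotin-labelled and hybridised to Affymetrix 3′ expression arrays, per the labels' protocols. Each array was taken as 1 graft, from the replicate number in its title. The deposited values are probe set intensity values on a linear scale, and the submitters' processing notes name MAS5 and GCOS but give neither a version nor a scaling target. Low values had been set to 0.01 (3.56% of all values). Here 57 control probe sets were left out, values under the pooled 20th percentile (0.0694) were raised to it, log2 was taken, and the 18625 probe sets with a mean at or above its 40th percentile were tested; all 5 member probe sets passed, with no value under the floor. No further normalization was applied. Groups came from the sample titles. Models were fitted with limma 3.58.1 under R 4.3.3 (eBayes with a mean-variance trend, genotype as sole factor). The fit was tried on simulated data that held no difference between array sets, so that trial does not cover such a difference. The number of arrays limits the precision.

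Genes were named through the platform annotation, with single-gene symbols updated by Entrez number to the GRCr8 table. Where several probe sets name a listed gene, the brightest stood for it. The members and lists were chosen with earlier results of these data known. Text names the members, the 3 genes most like each single-gene member, and from each list the genes past the threshold or else the lowest p in each direction; Gclc, Gclm, Hmox1, Akr1b8, Nfe2l2 and Keap1 were added after their values were seen. Alternatives changed the floor, filter, normalization, variance model, array weights, covariates and arrays. The pairwise ratios, the permutation within array sets and the correlations within array sets were added after seeing the data. Motif windows come from RefSeq, GRCr8.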

Additional observations from a re-analysis of the deposited data

How the results depend on the processing

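The log2 difference stayed positive for all 5 probe sets in 12 alternatives and 12 fits without 1 array, except that of Gsta2/Gsta5 with the Gapdh control ratio as covariate (-0.0016). Gsta3 lay between 0.79 and 1.08 over the alternatives and between 0.82 and 1.03 without 1 array, and Gstp1 between 0.54 and 1.04 and between 0.65 and 0.92. Over the alternatives Gsta1 lay between 0.13 and 0.33, Gsta4 between 0.041 and 0.23 and Gsta2/Gsta5 between -0.0016 and 0.19. Quantile normalization moved Gsta1 from 0.26 to 0.14, Gsta4 from 0.20 to 0.12 and Gsta2/Gsta5 from 0.14 to 0.026, and left Gsta3 at 0.97 and Gstp1 at 0.78. No probe set of the family passed over all arrays, against 1 with array weights (Gsta3, adjusted p = 0.0308 in limma), 2 with array set as a block, and 0 to 1 without 1 array. Over all tested probe sets 4 passed, against 2 with the stricter level filter, which tests fewer probe sets, 112 with array set as a block and 1190 in array set 2 alone, where the cause was not tested. In array set 2 alone, 3 grafts against 3, none of the 5 passed (lowest adjusted p 0.0776 in limma), and in array set 1 alone none did. No paired analysis was possible because the replicate numbers of the genotypes share 9 alone. The number of arrays, 6 a genotype, limits what these fits can show.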

Other observations

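Near relatives outside the family had dim probe sets that did not pass the level filter. Gstp3, a further pi class gene, had a signal of 0.0195 to 0.118 in wild-type grafts (median 0.0384) and of 0.0808 to 0.186 in deficient grafts (median 0.126). The groups overlapped, and 4 of 6 wild-type values and 0 of 6 deficient values were below the floor of 0.0694, so no fold is given. Gsta3l1, which lies in the same gene cluster as Gsta3, had 0.0118 to 0.0898 in wild-type and 0.01 to 0.119 in deficient grafts, with 8 of 12 values below the floor.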
